A study of Mus musculus with 15 samples.

Results

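Tumor 2, the later of the melanomas that each of 5 untreated mice carried, was compared with the tumor draining lymph node (TdLN) of the same mice by the T cell receptor (TCR) β chains of sorted CD8+ PD-1+ CD44+ T cells. The samples were chosen by their labels as the 5 left tumors and the 5 lymph nodes with the same numbers, 10 of the 15 samples of the series. Equal numbers were taken to mean the same mouse. The 5 samples of tumor 1 were used to trace TCRs of tumor 2 and for 1 closing comparison. Within the samples, rearrangements listed as in frame and without a stop codon (productive) were taken, and a TCR was defined as a distinct productive nucleotide rearrangement of 87 bases. Tumor 2 held 1490 unique TCRs in 13500 templates and the TdLN 15712 in 28806, of 18625 in 65524 over all 15 samples, each counted within its sample. A template is the assay's estimate of a copy of the rearranged gene in the genomic DNA, and therefore close to a count of cells. The values are given on a pair of scales, the share of unique TCRs, in which each TCR counts once, and the share of templates, in which a TCR counts by its clone size.

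The mice were female C57BL/6, purchased at 6 weeks of age. Their samples are all labelled Control. Every mouse carried B16F10GP on both flanks, the B16F10 melanoma line transduced with a lentivirus to express the glycoprotein of lymphocytic choriomeningitis virus as a model antigen. Tumor 1 was implanted in the right flank on day 0, tumor 2 in the left flank on day 3, and tissues were taken on day 19. The TdLN was that of the tumor 1 side, so for tumor 2 it is the node of the opposite flank, and the node that drains tumor 2 was not analysed here. The model is a transplanted cell line that bears a viral protein, and both groups come from mice with both tumors. The files hold TCR β rearrangements alone, so the CD8, PD-1 and CD44 phenotype set by the sort could not be checked in them.

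A TCR β chain is built in the thymus by joining a V, a D and a J segment of the Trb locus. Enzymes trim the segment ends and a template-free polymerase adds N nucleotides between them, which makes the third complementarity determining region (CDR3), the part that contacts the peptide, different in nearly every T cell. V segments also encode the loops that mainly contact the MHC molecule. T cells that divide pass on their rearrangement, so a rearrangement with many templates marks an expanded clone. A T cell often carries another, out of frame β rearrangement on its other chromosome, which travels with the clone without making a receptor. PD-1+ CD44+ T cells are antigen experienced, and in a draining node they include the less differentiated cells from which tumor T cells are thought to be supplied.

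Depth differed between samples. Tumor 2 of mice 1 to 5 had 3975, 3364, 3855, 238 and 2068 productive templates with 331, 362, 194, 50 and 553 unique TCRs. The 5 TdLNs had 3254 to 9105 productive templates (median 3940) and 1290 to 5722 unique TCRs. Tumor 2 of mouse 4 was thus the shallowest sample. Differences described in detail that had an unadjusted p under 0.05 are given with and without mouse 4. Names of the samples follow one spelling in mice 1 to 3 and another in mice 4 and 5, so some differences are also given for each set, since the spelling could go with a batch. A TCR that was not detected could still make up 0.0329% to 0.0922% of templates in a TdLN, or 1.26% in tumor 2 of mouse 4, the share that 3 templates would give. Such limits and the 95% Wilson intervals given for single samples cover counting error only.

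Samples of tumor 2 from different mice shared many of the same nucleotide rearrangements, which bears on every comparison that follows. TCRs also present in tumor 2 of mouse 2 made up 91.3% of the templates of tumor 2 of mouse 1, and in the other direction 86.9%. Of tumor 2 of mouse 3, 92.0% of templates belonged to TCRs that were also in tumor 2 of mouse 1 and 86.9% to TCRs also in that of mouse 2. Tumor 2 of mouse 4 had no productive TCR in common with any other tumor 2, but 89.9% of its templates were found in its own tumor 1 and 76.5% in tumor 1 of mouse 5. Tumor 2 of mouse 5 stood apart, with 11.8% of its templates in any sample of another mouse, against 93.4%, 88.2%, 93.3% and 76.5% in mice 1 to 4.

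**Figure D1:**
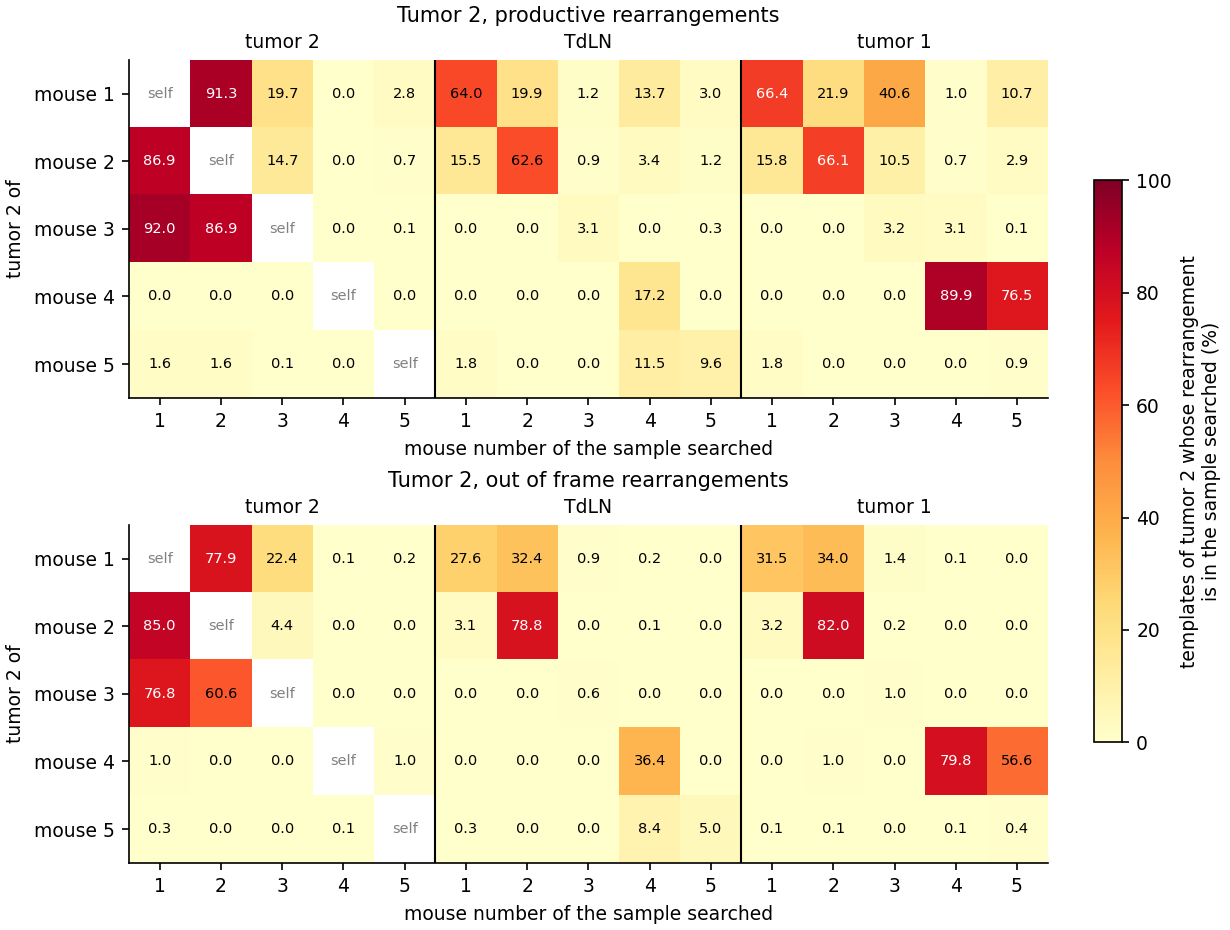
Percentage of the templates of each tumor 2 sample (rows) whose nucleotide rearrangement was also found in each of the other samples (columns, by tissue and mouse number), for productive rearrangements above and out of frame rearrangements below. Among productive TCRs the highest values are those of tumor 2 of mouse 3 in tumor 2 of mouse 1 (92.0%) and of mouse 1 in that of mouse 2 (91.3%), while out of frame the TdLN of mouse 2 also holds 78.8% of the tumor 2 templates of its own mouse.

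The sharing was not limited to productive TCRs. Among out of frame rearrangements, 84.2%, 85.7%, 78.6%, 57.6% and 8.81% of the templates of tumor 2 of mice 1 to 5 were found in a sample of another mouse. Tumor 2 of mice 1, 2 and 3 had 41 productive and 23 out of frame rearrangements in common, of which 38 and 23 were in no TdLN and in no tumor 1. These 41 TCRs held 85.8% of the productive templates of tumor 2 of mouse 3, and 18.4% and 14.3% of those of mice 1 and 2. The TdLN shared less with other mice, at 37.2%, 18.8%, 3.96%, 3.37% and 1.80% of productive templates in mice 1 to 5. Whether these rearrangements arose separately in each mouse, or passed between samples in handling or sequencing, was not tested. In the latter case the 5 tumor 2 samples would not be 5 independent ones. The tests below treat them as separate samples, and differences described in detail with an unadjusted p under 0.05 are also given under 2 further settings. In the first, every rearrangement found in a sample of another mouse was left out, which left tumor 2 of mice 1 to 5 with 263, 398, 260, 56 and 1824 productive templates. In the second, chosen after the sharing had been seen, a rearrangement was kept only in the mouse where its template share was highest, which left 2867, 2316, 3814, 238 and 2032. The second setting selects by the template shares that are then compared. It keeps each clone where it is largest, so it cannot serve as an independent check of clone sizes. The first setting took out 10, 10, 10, 9 and 3 of the 10 largest TCRs of tumor 2 in mice 1 to 5. It removes most of the clones that set the shares of templates there, so it is not an independent check of these shares either.

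The TCRs with most templates in tumor 2 are shown first, since their clones set the shares of templates described below. Each is given with the mouse, its V and J gene and, for all but the largest of mouse 4, the CDR3 listed for it, and capitals mark the bases between the V and the J part as listed, that is N nucleotides and D bases, the latter also where no D gene was named.
Mouse 1, largest, Trbv16 and Trbj2-7, GSYEQYF: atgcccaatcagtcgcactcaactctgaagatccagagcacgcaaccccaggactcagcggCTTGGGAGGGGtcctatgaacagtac
Mouse 1, next, Trbv3 and Trbj2-1, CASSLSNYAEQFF: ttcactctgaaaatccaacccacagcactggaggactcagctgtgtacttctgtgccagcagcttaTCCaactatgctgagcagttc
Mouse 2, largest, Trbv17 and Trbj2-7, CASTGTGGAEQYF: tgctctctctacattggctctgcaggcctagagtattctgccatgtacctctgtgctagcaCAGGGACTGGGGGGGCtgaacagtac
Mouse 2, next, Trbv1 and Trbj1-5, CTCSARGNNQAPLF: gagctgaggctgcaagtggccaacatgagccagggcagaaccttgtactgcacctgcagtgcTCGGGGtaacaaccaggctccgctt
Mouse 3, largest, Trbv3 and Trbj2-1, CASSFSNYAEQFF: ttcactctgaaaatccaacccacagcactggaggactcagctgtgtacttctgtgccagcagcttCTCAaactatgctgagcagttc
Mouse 3, next, Trbv17 and Trbj1-2, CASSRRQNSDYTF: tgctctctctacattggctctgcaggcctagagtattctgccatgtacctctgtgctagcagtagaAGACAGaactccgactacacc
Mouse 4, largest, Trbv13-1 and Trbj2-4: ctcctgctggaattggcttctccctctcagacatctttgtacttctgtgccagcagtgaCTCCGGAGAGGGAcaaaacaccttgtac
Mouse 4, next, Trbv17 and Trbj2-4, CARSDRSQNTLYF: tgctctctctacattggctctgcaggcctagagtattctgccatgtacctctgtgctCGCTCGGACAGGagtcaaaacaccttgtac
Mouse 5, largest, Trbv1 and Trbj1-5, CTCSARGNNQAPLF: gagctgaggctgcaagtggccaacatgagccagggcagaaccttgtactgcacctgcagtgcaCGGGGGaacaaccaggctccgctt
Mouse 5, next, Trbv13-1 and Trbj1-2, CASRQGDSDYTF: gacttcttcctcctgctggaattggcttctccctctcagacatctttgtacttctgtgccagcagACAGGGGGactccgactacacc

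All V parts matched exon 2 of their gene and all J parts exon 1 of theirs, on the plus strand of chromosome 6 of GRCm38. The V part of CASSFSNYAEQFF, the largest TCR of mouse 3, lies at 41048757 to 41048821 in Trbv3, and its J part at 41542755 to 41542772 in Trbj2-1. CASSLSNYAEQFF of mouse 1 uses the same 2 segments and differs in the bases around its junction of 3 bases. Mice 2 and 5 had the CDR3 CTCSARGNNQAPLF among their largest TCRs from different nucleotide rearrangements. Counting from 1 at the 5′ end and giving the base of mouse 2 first, the 2 sequences differ by T63A and T69G, and both use Trbv1 (V part from 40891821) and Trbj1-5 (J part up to 41535102).

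Clone sizes were less even in every tumor 2 than in every TdLN. The largest TCR of tumor 2 made up 33.6%, 21.02%, 23.1%, 20.2% and 25.6% of productive templates in mice 1 to 5, whereas that of the TdLN made up 10.8%, 3.47%, 5.13%, 0.550% and 0.297%. In mouse 1 it was GSYEQYF in both tissues, which is listed as productive but lacks 25 V bases and the conserved cysteine. Whether it makes a working receptor was not tested. Every tumor 2 lay above every TdLN, by a mean of 20.6 ± 3.31 percentage points (the error, as for all differences below, is the SD of the 5 differences between the samples of a mouse). A two-sided exact permutation test gave p = 0.00794, which 5 against 5 samples cannot go below. Benjamini-Hochberg adjustment over the 26 single measures tested brought this p to 0.0516, the smallest adjusted value, so none of the 26 passed a threshold of 0.05 after adjustment. Without mouse 4 the difference was 20.9 points (exact permutation p = 0.0286, the smallest for 4 against 4), and it was 19.4 ± 2.89 (SD) for mice 1 to 3 and 22.5 ± 4.01 (SD) for mice 4 and 5. With the rearrangements of other mice left out the difference fell to 10.6 points, and with each kept in the mouse of its highest share it was 25.3 (exact permutation p = 0.0159 and 0.00794).

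The 10 largest TCRs held 68.4%, 62.1%, 68.7%, 73.9% and 51.3% of the templates of tumor 2 in mice 1 to 5 and 32.5%, 12.4%, 21.7%, 2.52% and 2.15% in the TdLN. The mean difference was 50.6 ± 12.9 points (SD over 5 mice, exact permutation p = 0.00794, adjusted p = 0.0516). It was 45.4 without mouse 4 (exact permutation p = 0.0286), 44.2 ± 7.35 (SD) for mice 1 to 3 and 60.3 ± 15.8 (SD) for mice 4 and 5. Under the 2 settings for shared rearrangements it was 33.4 and 55.6 points (exact permutation p = 0.00794 each). In tumor 2 the largest clones reached 50% of the templates with 4, 5, 5, 5 and 10 TCRs, and in the TdLN with 69, 301, 115, 1658 and 1565. The nodes of mice 4 and 5 were the most even samples of all, and the nodes of mice 1 to 3 lay between them and the tumors.

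**Figure D2:**
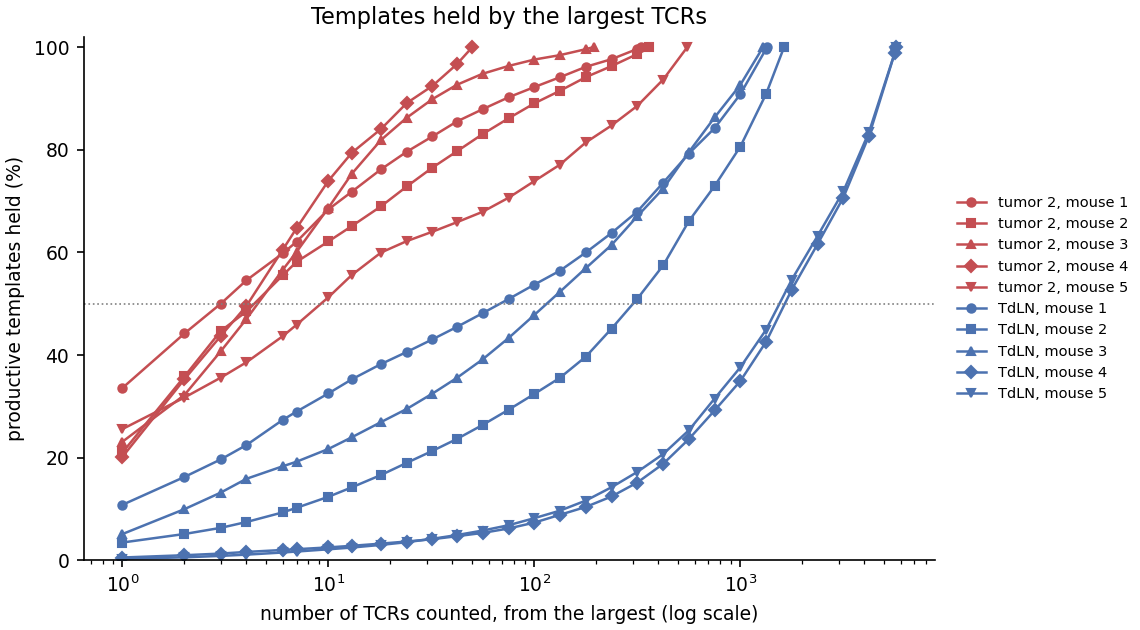
Percentage of productive templates (vertical axis) held by the largest TCRs, counted from the largest on a log scale (horizontal axis), for the 5 samples of tumor 2 (red) and the 5 TdLNs (blue), with a symbol per mouse; the dotted line marks 50%. The tumor 2 curves cross it between 4 and 10 TCRs and the TdLN curves between 69 and 1658.

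The number of unique TCRs depends on depth, so it was also computed at equal depth. In 238 templates, the depth of the shallowest sample, tumor 2 of mice 1 to 5 would show 63.9, 76.7, 49.4, 50 and 106 unique TCRs, and the TdLN 153, 201, 172, 233 and 233. The ranges did not overlap, and the difference was -1.56 ± 0.446 on the log2 scale (SD over 5 mice, exact permutation p = 0.00794, adjusted p = 0.0516). Among the tumors, mouse 5 had the most TCRs at this depth, as it did in the files. Without mouse 4 the common depth could rise to 2068 templates, and the log2 difference was then -2.09 (exact permutation p = 0.0286). With the rearrangements of other mice left out, the common depth was 56 templates and the difference -0.49, against -0.98 for all TCRs at that depth (exact permutation p = 0.00794 each). With each kept in the mouse of its highest share it was -1.73 at 238 templates (exact permutation p = 0.00794).

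Productive rearrangements were a smaller share of all those listed in every tumor 2 than in every TdLN. They were 56.6%, 53.6%, 49.5%, 48.5% and 56.8% of the rearrangements in tumor 2 and 64.7%, 64.4%, 58.8%, 66.5% and 62.5% in the TdLN. The difference was -10.4 ± 4.61 points (SD over 5 mice, exact permutation p = 0.00794, adjusted p = 0.0516), and -8.49 without mouse 4 (exact permutation p = 0.0286). Under the settings for shared rearrangements it was -13.2 and -11.1 (exact permutation p = 0.00794 each). By templates the productive share was 74.1% ± 8.18 against 68.0% ± 2.93 (SD, n = 5), a difference within the spread between mice (exact permutation p = 0.167). Rearrangements identical in their last 40 bases to another of their sample with at least 50 times the templates accounted for 27, 25, 42, 0 and 28 of unique TCRs in tumor 2 in mice 1 to 5, and 24 of the 15712 of all TdLNs. Without such rearrangements the difference in the productive share was -11.0 points (exact permutation p = 0.00794). The largest productive TCR had 48 templates in tumor 2 of mouse 4, and 48 and 27 in the TdLNs of mice 4 and 5. In these samples no variant of a productive TCR could meet the rule of 50 times. The counts therefore depend on clone size and do not compare how common such variants were in the 2 tissues.

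No V gene passed the adjusted threshold by the exact test, whose smallest p of 0.00794 limits how low an adjusted p can go. Among unique TCRs the means lay farthest apart for Trbv19, with the higher share in tumor 2, and for Trbv12-1 and Trbv13-2, with the lower. Of 20 V genes that reached a mean of 1% among unique TCRs, 0 (0%) passed 0.05 after adjustment, and 6 (30%) had an unadjusted p under 0.05, 2 of them higher in tumor 2 and 4 lower. Of 19 V genes by share of templates, again 0 (0%) passed after adjustment and 8 (42.1%) before it, 1 higher and 7 lower. Among these, some are not given under the further settings, all lower in tumor 2. They are Trbv14 by unique TCRs (2.44% against 3.87%, exact permutation p = 0.0317) and Trbv31 by templates (1.24% against 2.58%, exact permutation p = 0.0238). By templates they are also Trbv12-1 (2.29% against 6.95%, exact permutation p = 0.0238) and Trbv2 (1.69% against 5.35%, exact permutation p = 0.0317). limma on log2 shares, an alternative, called 0 V genes by unique TCRs and 7 by templates, and 8 by templates with the mouse as a replicate block. The samples of the 2 groups did not overlap for 1 V gene by unique TCRs (5% of those tested) and for 2 by templates (10.5%). Adjusted p-values in the following are over all V genes, or all J genes, tested on that scale.

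Trbv19 (chromosome 6, 41178375 to 41179048 in GRCm38) accounted for 12.4%, 12.2%, 19.6%, 20% and 9.22% of unique TCRs in tumor 2 in mice 1 to 5, and 9.58%, 9.26%, 8.68%, 6.36% and 6.58% in the TdLN. It was higher in tumor 2 in 5 of 5 mice, although the ranges overlapped, and it was the V gene with the largest difference, 6.58 ± 5.29 points (SD over 5 mice, exact permutation p = 0.0238, adjusted p = 0.159). Without mouse 4 the difference was 4.81 points (exact permutation p = 0.0857, adjusted p = 0.364). It was 5.54 ± 4.65 (SD) for mice 1 to 3 and 8.14 ± 7.77 (SD) for mice 4 and 5, and 5.09 and 5.94 under the settings for shared rearrangements, higher in 5 of 5 mice in both. By templates it was 10.5% ± 5.11 against 6.74% ± 0.783 (SD over 5 mice, exact permutation p = 0.190, adjusted p = 0.356), and 17.3% against 7.55% when rearrangements of other mice were left out (exact permutation p = 0.0238, adjusted p = 0.0905).

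The Trbv12 and Trbv13 genes lie interleaved in the V cluster on chromosome 6. Both tested Trbv12 genes had lower means in tumor 2 on both scales, as had 11 of all 20 V genes by unique TCRs and 13 of 19 by templates. By the exact test 0 of 2 passed after adjustment, whereas limma called both by templates (adjusted p = 0.0226 each). The family as a whole accounted for 6.95%, 9.39%, 9.79%, 6% and 12.1% of unique TCRs in tumor 2, and 10.6%, 13.9%, 13.2%, 16.6% and 17.1% in the TdLN. It was lower in tumor 2 in 5 of 5 mice, by 5.44 ± 2.98 points (SD over 5 mice, exact permutation p = 0.0159, adjusted p = 0.0516 over the single measures). By templates the difference was -8.37 ± 4.10 points (SD over 5 mice, exact permutation p = 0.0159, adjusted p = 0.0516), with 3.88% in tumor 2 and 12.3% in the TdLN. Without mouse 4 these differences were -4.13 and -6.70 (exact permutation p = 0.0571 each). Leaving out rearrangements of other mice gave -4.09 and -5.32, and keeping each in the mouse of its highest share gave -5.17 and -8.63.

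Trbv12-1 (41113550 to 41114067) lay farther apart between the tissues than Trbv12-2 (41118851 to 41119364). Its share of unique TCRs was 3.32%, 4.97%, 5.67%, 2% and 6.51% in tumor 2 and 5.94%, 8.77%, 8.91%, 8.44% and 8.55% in the TdLN, lower in 5 of 5 mice (difference -3.63 ± 1.71 points, SD, n = 5; exact permutation p = 0.0159, adjusted p = 0.159). Only the node of mouse 1 came within the range of the tumors, and without mouse 4 the difference was -2.93 (exact permutation p = 0.0571, adjusted p = 0.364). It was -2.83 and -3.50 under the settings for shared rearrangements (exact permutation p = 0.0317 and 0.0159). Trbv12-2 was lower in tumor 2 in 5 of 5 mice by templates, at 1.59% ± 1.66 against 5.30% ± 2.86 (SD over 5 mice, exact permutation p = 0.0397, adjusted p = 0.108), and by unique TCRs it was 4.36% ± 0.755 against 6.16% ± 2.06 (SD, n = 5; adjusted p = 0.222 by exact permutation). By templates the difference of Trbv12-2 was -2.83 points without mouse 4 (exact permutation p = 0.143), and -2.28 and -3.70 under the settings for shared rearrangements (exact permutation p = 0.143 and 0.0556). The difference of Trbv12-2 by unique TCRs was larger in mice 4 and 5, at -3.58 points, than the -1.81 over all mice.

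Of the Trbv13 genes 1 of 3 had an unadjusted p under 0.05 by unique TCRs, against 30% of all V genes tested. This was Trbv13-2 (41121396 to 41121832), with 4.83%, 5.52%, 6.70%, 6% and 9.76% of unique TCRs in tumor 2 and 9.65%, 8.59%, 9.69%, 9.55% and 10.9% in the TdLN. It was lower in tumor 2 in 5 of 5 mice, with a difference of -3.11 ± 1.32 points (SD over 5 mice, exact permutation p = 0.0397, adjusted p = 0.159), and of -3.01 without mouse 4 (exact permutation p = 0.114). The settings for shared rearrangements gave -3.79 and -3.19 (exact permutation p = 0.0397 each). By templates it was 3.64% ± 2.39 against 8.10% ± 1.62 (SD over 5 mice, exact permutation p = 0.0238, adjusted p = 0.0905), with differences of -4.90 without mouse 4 and of -3.92 and -4.24 under those settings (exact permutation p = 0.0286, 0.00794 and 0.0238). The family as a whole stood at 20.04% ± 1.33 against 21.6% ± 1.11 of unique TCRs (SD over 5 mice, exact permutation p = 0.103). In tumor 2 of mouse 4 Trbv13-1 alone held 26.5% of templates, of which 20.2 points were its largest TCR.

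Trbv5 (41062332 to 41062803) was the other V gene with an unadjusted p under 0.05 and a higher mean in tumor 2 by unique TCRs. It made up 11.5%, 7.18%, 8.76%, 8% and 4.70% of unique TCRs there, against 5.02% to 5.44% in the TdLN, where it hardly varied. Tumor 2 of mouse 5 was the only one below its node (difference 2.82 ± 2.44 points, SD, n = 5; exact permutation p = 0.0476, adjusted p = 0.159). Without mouse 4 it was 2.88 points (exact permutation p = 0.143), and 2.49 and 2.38 under the settings for shared rearrangements (exact permutation p = 0.222 and 0.0476). By templates the mean went the other way, at 5.39% against 7.40% (exact permutation p = 0.206, adjusted p = 0.356), and back to 9.05% against 6.19% when rearrangements of other mice were left out (exact permutation p = 0.452).

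Genes with low usage in tumor 2 stood out more by templates. Trbv29 (41271394 to 41271881) had 0.931%, 1.16%, 1.76%, 0.420% and 2.13% of the templates of tumor 2 and 5.21%, 5.13%, 4.06%, 4.24% and 4.01% in the TdLN, with no overlap. Trbv26 (41227505 to 41227993) had at most 0.967% in tumor 2, at least 1.51% in the TdLN, and none of the 238 templates of tumor 2 of mouse 4, which allows up to 1.26%. For both genes the adjusted p was 0.0754 (exact permutation, p = 0.00794). Without mouse 4 the differences were -3.11 and -1.38 points (exact permutation p = 0.0286 each), and with each rearrangement kept in the mouse of its highest share -3.20 and -1.55 (exact permutation p = 0.00794 each). Leaving out rearrangements of other mice kept the direction of both, at 2.77% against 5.20% for Trbv29 and 1.41% against 2.17% for Trbv26, but only the former kept an unadjusted p under 0.05 (exact permutation p = 0.0238 and 0.238). By unique TCRs Trbv2 (41047340 to 41047995) was the gene without overlap, at 2.42%, 2.49%, 2.58%, 0% and 2.89% in tumor 2 and 3.25% to 4.03% in the TdLN (exact permutation p = 0.00794, adjusted p = 0.159). The value of 0% is from the 50 TCRs of mouse 4, and without that mouse Trbv2 was at 2.59% ± 0.210 against 3.73% ± 0.369 (SD over 4 mice, exact permutation p = 0.0286, adjusted p = 0.364). Under the settings for shared rearrangements the difference of Trbv2 was -1.26 and -1.57 points (exact permutation p = 0.0556 and 0.0159).

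On the template scale single clones weighed heavily, as in Trbv17 (41163062 to 41163556). This gene held 2.94%, 21.4%, 9.73%, 15.5% and 4.26% of the templates of tumor 2, against 1.85% to 4.37% in the TdLN (exact permutation p = 0.0476, adjusted p = 0.113). In mice 2, 3 and 4 nearly all of it was the Trbv17 TCR printed above, with 21.02%, 9.11% and 15.1% of all templates. With rearrangements of other mice left out Trbv17 held 4.06% against 3.17% of templates (exact permutation p = 0.579), and with each kept in the mouse of its highest share 12.3% against 2.93% (exact permutation p = 0.111). Without mouse 4 it was at 9.58% against 3.03% (exact permutation p = 0.171). By unique TCRs Trbv17 was at 3.45% against 2.44% (exact permutation p = 0.0714), and at 2.42% in both tissues once small rearrangements that resemble a far larger one were left out. In the same way Trbv3 reached 30.6% of the templates of tumor 2 of mouse 3 and Trbv16 35.4% in mouse 1. For neither V gene was a difference between the tissues larger than the spread between mice (exact permutation p = 0.405 and 0.675).

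**Figure D3:**
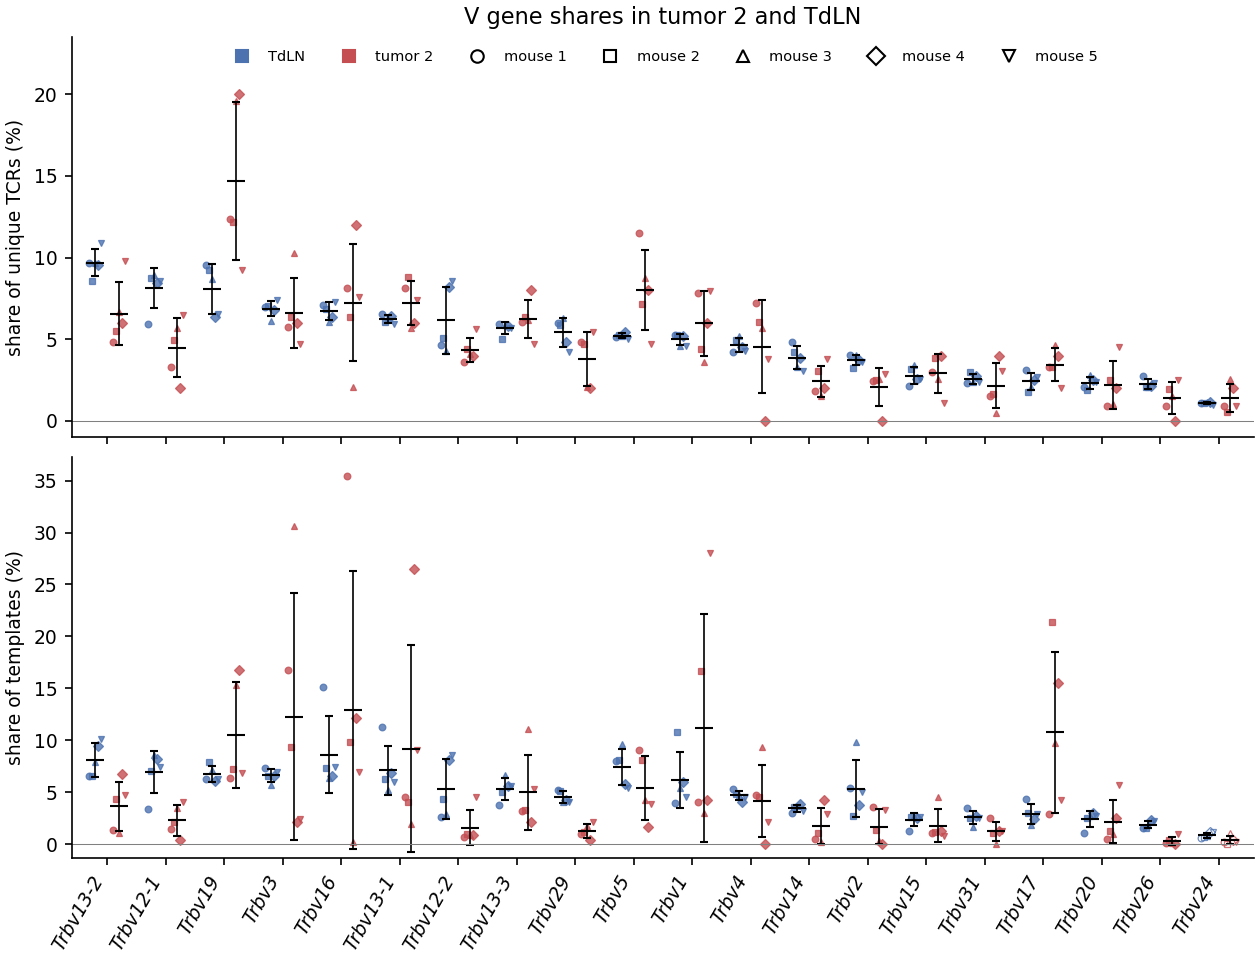
Share of each V gene among unique TCRs (above) and templates (below), in percent, for the TdLN (blue) and tumor 2 (red), with a symbol per mouse and the mean and SD of 5 mice in black. Open symbols mark a gene under the 1% minimum on that scale. Trbv19 is higher and Trbv12-1 and Trbv13-2 lower in tumor 2 of every mouse by unique TCRs, while by templates single tumors reach 35.4% for Trbv16.

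Among J genes, 2 segments of the second J cluster were lower in tumor 2 by templates, which are the only gene calls by the exact test in this comparison. Of 12 J genes, 0 (0%) were called by unique TCRs and 1 (8.33%) had an unadjusted p under 0.05, lower in tumor 2. By templates 2 of 12 (16.7%) were called and 5 (41.7%) had an unadjusted p under 0.05, each of them lower. Among these, Trbj1-1 (3.23% against 5.79%, exact permutation p = 0.0317) and Trbj1-6 (1.06% against 2.15%, exact permutation p = 0.0476) are not described gene by gene. The Trbj2 genes accounted for both calls, with 2 of 6 Trbj2 genes and 0 of 6 Trbj1 genes, and the samples did not overlap for these 2 (16.7% of J genes). Before adjustment the clusters were closer, with 3 Trbj2 and 2 Trbj1 genes under 0.05 by templates, and 4 of 6 genes lower in each. The Trbj1 cluster made up 28.8% of templates in tumor 2 and 28.4% in the TdLN (exact permutation p = 0.976). limma called Trbj2-2 alone by templates, with an adjusted p of 0.0182, or 0.0393 with a replicate block, and 0 J genes by unique TCRs.

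Trbj2-2 (41542957 to 41543007) held 0.453%, 0.922%, 1.14%, 1.68% and 2.18% of the templates of tumor 2 in mice 1 to 5 and 3.97%, 2.66%, 5.33%, 4.11% and 3.88% in the TdLN. It fell by 2.72 ± 1.10 points (SD over 5 mice, exact permutation p = 0.00794, adjusted p = 0.0476), with a difference of the same sign in both sets, -3.15 ± 1.27 (SD) for mice 1 to 3 and -2.07 ± 0.511 (SD) for mice 4 and 5. By unique TCRs the same gene was at 5.92% ± 2.02 in tumor 2 and 5.37% ± 0.871 in the TdLN (SD over 5 mice, exact permutation p = 0.587). With rearrangements of other mice left out the template difference turned to 1.17 points (exact permutation p = 0.651, adjusted p = 0.926), and with each kept in the mouse of its highest share it was -2.72 (exact permutation p = 0.00794, adjusted p = 0.0952).

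Trbj2-5 (41543453 to 41543501) was called by the exact test as well, but not by limma (adjusted p = 0.0677, or 0.0647 with a replicate block). It held 1.64%, 4.49%, 3.42%, 5.04% and 3.14% of templates in tumor 2 and 5.19%, 8.46%, 6.88%, 7.65% and 7.13% in the TdLN, a difference of -3.51 ± 0.563 points (SD over 5 mice, exact permutation p = 0.00794, adjusted p = 0.0476). The difference was even across the sets, at -3.66 ± 0.278 (SD) for mice 1 to 3 and -3.29 ± 0.977 (SD) for mice 4 and 5. Both settings for shared rearrangements kept its direction, at -3.18 and -3.49 points, with an adjusted p of 0.0952 in each (exact permutation). Without any 1 of the mice, 4 against 4 samples gave 0 J genes called, and both Trbj2-2 and Trbj2-5 stood at the smallest p, 0.0286 by exact permutation, with an adjusted p of 0.0857 to 0.171. Without mouse 4 the adjusted p was 0.171, at -2.79 points for Trbj2-2 and -3.74 for Trbj2-5.

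Trbj2-3 was lower in tumor 2 in 5 of 5 mice on both scales, and lower by unique TCRs without overlap. Its share of unique TCRs was 6.04%, 5.25%, 4.12%, 2% and 7.05% in tumor 2 and 8.17%, 9.22%, 7.67%, 7.32% and 7.68% in the TdLN (difference -3.12 ± 1.80 points, SD, n = 5; exact permutation p = 0.00794, adjusted p = 0.0952). Without mouse 4 the difference was -2.57 (exact permutation p = 0.0286), and -3.68 and -3.15 under the settings for shared rearrangements (exact permutation p = 0.00794 each). By templates Trbj2-3 was at 2.66% ± 1.93 against 5.46% ± 0.457 (SD over 5 mice, exact permutation p = 0.0159), with differences of -2.35 points without mouse 4 and of -2.06 and -2.51 under those settings (exact permutation p = 0.0571, 0.0476 and 0.103). Trbj2-7, the most used J gene, was at 23.8% ± 6.05 against 21.9% ± 0.675 of unique TCRs and at 33.9% ± 17.2 against 37.0% ± 6.81 of templates (SD over 5 mice, exact permutation p = 0.516 and 0.730). The spread of Trbj2-7 in tumor 2 ran from 16.3% of templates in mouse 5 to 55.9% in mouse 1, where GSYEQYF uses it. Trbj2-1 was at 14.7% against 12.9% of unique TCRs (exact permutation p = 0.254). As whole clusters, the Trbj1 genes made up 32.1% ± 4.40 of unique TCRs in tumor 2 and 32.6% ± 1.503 in the TdLN (SD over 5 mice, exact permutation p = 0.849).

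**Figure D4:**
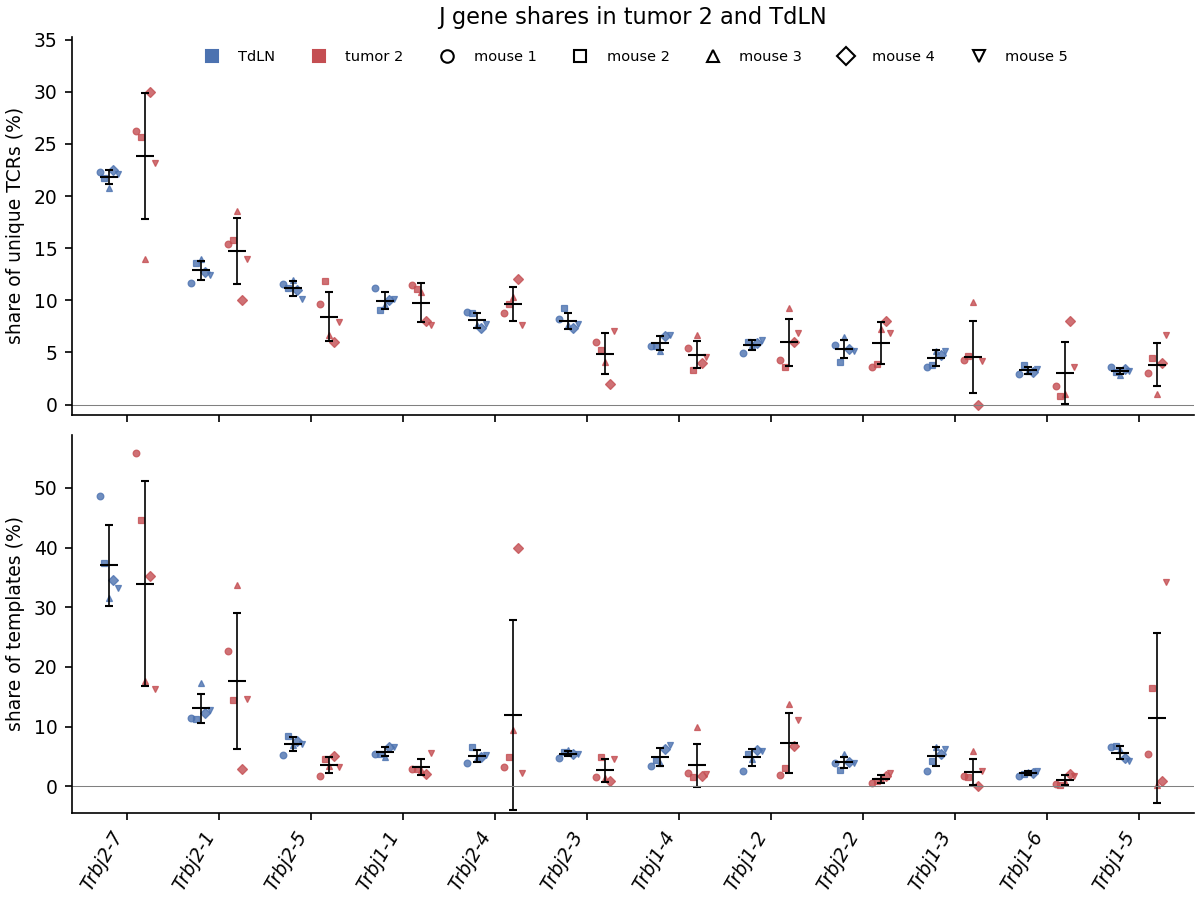
Share of each J gene among unique TCRs (above) and templates (below), in percent, for the TdLN (blue) and tumor 2 (red), with a symbol per mouse and the mean and SD of 5 mice in black. By templates Trbj2-2 and Trbj2-5 lie lower in every tumor 2 than in every TdLN, and single tumors reach high values for other genes, as for Trbj2-7 at 55.9%.

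The CDR3s of unique TCRs were on average shorter in tumor 2 than in the TdLN of every mouse. The mean length was 13.7, 13.8, 13.9, 13.5 and 13.9 residues in tumor 2 of mice 1 to 5 and 14.12, 14.04, 14.03, 13.93 and 13.94 in the TdLN. The difference was -0.255 ± 0.181 residues (SD over 5 mice, exact permutation p = 0.0159, adjusted p = 0.0516), and -0.201 without mouse 4 (exact permutation p = 0.0286). It was -0.249 ± 0.149 (SD) for mice 1 to 3 and -0.265 ± 0.294 (SD) for mice 4 and 5. Both settings for shared rearrangements gave -0.347 and -0.298 (exact permutation p = 0.00794 each), whereas leaving out the small rearrangements that resemble a far larger one gave -0.177 (exact permutation p = 0.111). CDR3s of 13 residues made up 25.0% ± 4.52 of unique TCRs in tumor 2 and 17.7% ± 1.04 in the TdLN, and those of 15 residues 18.5% ± 3.13 and 23.0% ± 1.08 (SD, n = 5). CDR3s that do not start with the conserved cysteine and end with phenylalanine, GSYEQYF among them, were 4.23%, 3.87%, 3.61%, 6% and 1.63% of unique TCRs in tumor 2 and 0.245% to 1.04% in the TdLN. Without them the difference in length was -0.169 residues by unique TCRs (exact permutation p = 0.0476).

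By templates the length followed the largest clones. Tumor 2 had means of 11.4, 13.1, 13.5, 13.5 and 13.8 residues and the TdLN 13.23, 13.88, 13.96, 13.77 and 13.82 (difference -0.671 ± 0.704, SD, n = 5; exact permutation p = 0.119). Mouse 1 was the shortest in both tissues, and in it CDR3s of at most 10 residues held 36.3% of the templates of tumor 2, mostly GSYEQYF, and 14.3% in the TdLN. The difference was -1.02 ± 0.718 (SD) for mice 1 to 3, -0.148 ± 0.202 (SD) for mice 4 and 5 and -0.766 without mouse 4 (exact permutation p = 0.171). It was -0.333 with rearrangements of other mice left out (exact permutation p = 0.0238), and -0.248 without CDR3s that lack the conserved ends (exact permutation p = 0.0159).

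No measure of N nucleotide addition had an unadjusted p under 0.05 between the tissues. Per unique TCR the mean was 3.73, 3.99, 4.12, 3.86 and 3.50 inserted bases in tumor 2 and 3.95, 3.75, 3.70, 3.33 and 3.22 in the TdLN, higher in tumor 2 in 4 of 5 mice (difference 0.247 ± 0.284, SD, n = 5; exact permutation p = 0.190). Without mouse 4 it was 0.178 (exact permutation p = 0.429), and under the settings for shared rearrangements 0.561 and 0.339 (exact permutation p = 0.0635 and 0.127). Within the sets it was 0.143 ± 0.325 (SD) for mice 1 to 3 and 0.404 ± 0.172 (SD) for mice 4 and 5. By templates the difference was 0.0978 ± 0.766 (SD over 5 mice, exact permutation p = 0.817) and turned to -0.225 without mouse 4 (exact permutation p = 0.543). TCRs without any N nucleotide were 8.74% ± 3.33 of unique TCRs in tumor 2 and 9.71% ± 3.26 in the TdLN (SD over 5 mice, exact permutation p = 0.532), and in both tissues they were most frequent in mice 4 and 5. Within mice they were lower in tumor 2 in 5 of 5, by 0.973 ± 0.383 points (SD), for which sign flips gave the smallest p they allow (exact p = 0.0625). Without CDR3s that lack the conserved ends the difference in N insertions turned to -0.135 bases by unique TCRs and -0.145 by templates (exact permutation p = 0.397 and 0.722).

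Trimming of the V segment was on average longer in tumor 2 than in the TdLN of every mouse. On average 3.41, 3.51, 3.18, 4.32 and 2.77 bases of V were missing per unique TCR in tumor 2, and 2.72, 2.76, 2.79, 2.51 and 2.50 in the TdLN (difference 0.784 ± 0.609, SD, n = 5; exact permutation p = 0.0159, adjusted p = 0.0516). Mouse 4 lay farthest above its node, and without it the difference was 0.527 (exact permutation p = 0.0571). It was 1.25 and 0.954 under the settings for shared rearrangements (exact permutation p = 0.00794 and 0.0159). Without the CDR3s that lack the conserved ends it was 0.179 bases (exact permutation p = 0.397). Trimming of the J segment stood at 2.97 ± 0.318 and 2.87 ± 0.0408 bases (SD over 5 mice, exact permutation p = 0.651). Trbd2 was assigned to 27.5% ± 8.22 of the templates of tumor 2 and to 39.2% ± 2.85 in the TdLN (SD over 5 mice, exact permutation p = 0.0317, adjusted p = 0.0917), a difference that turned to 1.62 points when rearrangements of other mice were left out (exact permutation p = 0.746). It was -9.89 with each kept in the mouse of its highest share (exact permutation p = 0.103), -12.5 without mouse 4 (exact permutation p = 0.0857) and -9.21 without CDR3s that lack the conserved ends (exact permutation p = 0.0873).

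**Figure D5:**
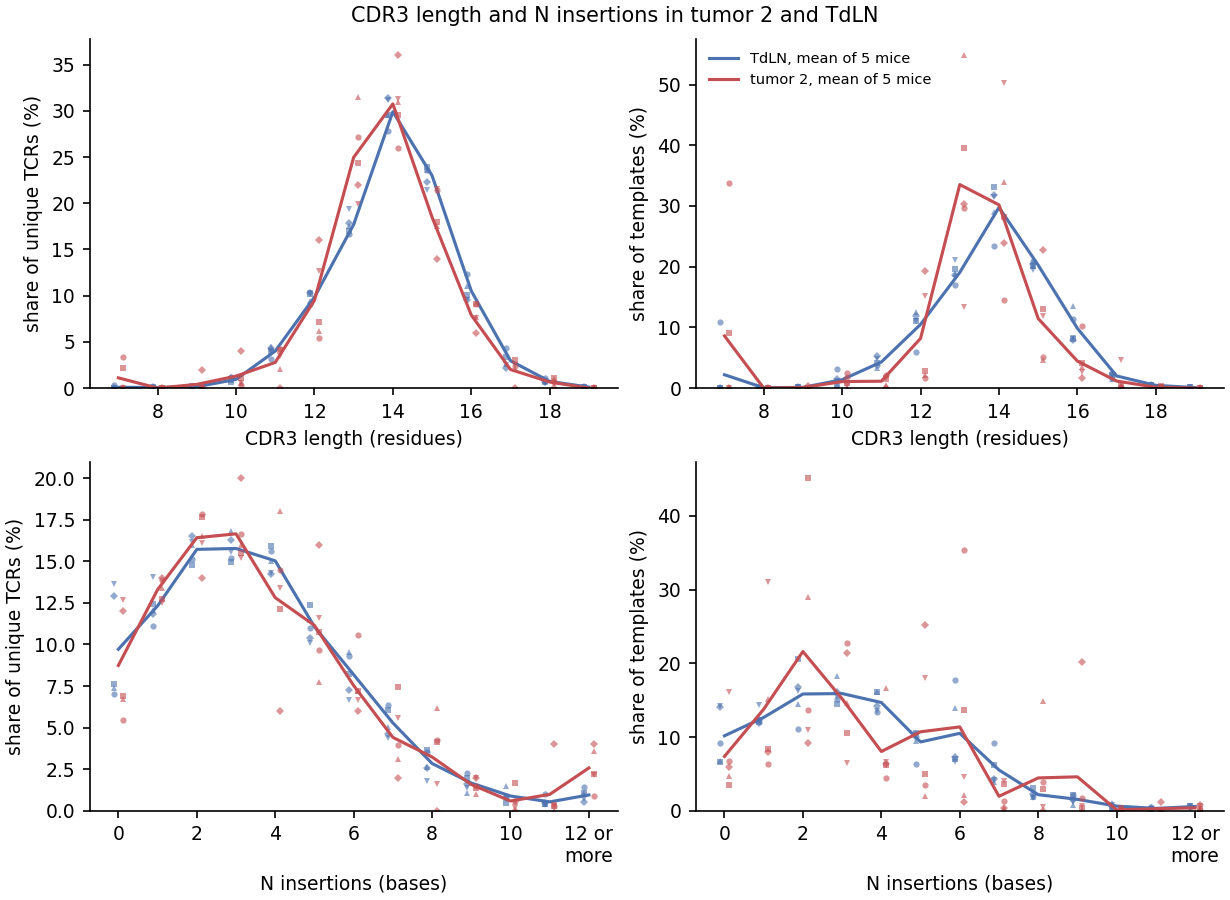
Share of unique TCRs (left) and templates (right), in percent, by CDR3 length in residues (above) and by number of N insertions in bases (below, 12 or more pooled), for the TdLN (blue) and tumor 2 (red). Lines are means of 5 mice and points single mice, in the symbols used for the V genes. The unique TCRs of tumor 2 have more CDR3s of 13 residues, 25.0% against 17.7%, and by templates mouse 1 forms a separate peak at the 7 residues of GSYEQYF.

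The 10 largest TCRs of each tumor 2 came to 50, each counted within its mouse. A rearrangement among the 10 largest of several mice thus counts more than once. GSYEQYF, for example, counts as found in the TdLN for mouse 1 and as not detected for mouse 2. Of the 50, 8 were also among the 10 largest of the TdLN of their mouse, 9 were found there with a lower rank, and 33 were not detected there. In mouse 1, GSYEQYF had 1335 of 3975 templates in tumor 2 (33.6%, interval 32.1% to 35.1%) and 409 in the TdLN (10.8%), where it was the largest TCR as well. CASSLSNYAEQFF had 422 in tumor 2 (10.6%) and 106 in the TdLN (2.80%). In mouse 2, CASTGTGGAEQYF had 707 (21.02%, interval 19.7% to 22.4%) and 54 (1.66%), and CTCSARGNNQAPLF had 498 (14.8%) and 113 (3.47%), the latter the largest TCR of that node. These 4 TCRs were 3.10, 3.78, 12.7 and 4.26 times larger by share in tumor 2. The 2 of mouse 1 also had 298 and 88 templates in tumor 2 of mouse 2, and the 2 of mouse 2 had 85 and 90 in that of mouse 1.

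In mouse 3 neither of the largest clones was detected in the node. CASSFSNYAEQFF had 891 of 3855 templates in tumor 2 (23.1%, interval 21.8% to 24.5%) and none of 3940 in the TdLN (interval up to 0.0974%). Its share in tumor 2 was 304 times the 0.0761% that 3 templates in the TdLN would make. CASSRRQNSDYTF had 351 templates (9.11%) and none in the TdLN. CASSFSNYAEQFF also had 182 templates in tumor 2 of mouse 1 and 128 in that of mouse 2, and was in no TdLN and no tumor 1 of any mouse. The largest TCR of the TdLN of mouse 3, of Trbv2 and Trbj2-1, had 202 templates there (5.13%), 247 in tumor 1 and none in tumor 2.

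In mouse 4 the 2 largest TCRs of tumor 2, with 48 (20.2%, interval 15.6% to 25.7%) and 36 templates (15.1%), were not detected among the 8728 templates of the TdLN. They had 515 and 480 templates in tumor 1 of mouse 4, and 24 and 21 in tumor 1 of mouse 5. In mouse 5, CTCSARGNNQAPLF with 529 templates (25.6%, interval 23.7% to 27.5%) and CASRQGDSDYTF with 127 (6.14%) were found in no other sample. The largest TCR of the TdLN of mouse 5, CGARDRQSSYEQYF, had 27 templates there (0.297%) and 3 in tumor 2 (0.145%). That of mouse 4, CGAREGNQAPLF, had 48 there and none in its own tumor 2, whereas the same rearrangement had 38 templates in tumor 2 of mouse 5. This TCR joins Trbv20 to Trbj1-5 without N nucleotides.

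The 17 of these 50 TCRs that were found in the TdLN were 5, 6, 1, 3 and 2 in mice 1 to 5. The same TCRs were found in tumor 1 in 5, 6, 1, 9 and 0 cases, and in a sample of another mouse in 10, 10, 10, 9 and 3. Read from the node, 9, 9, 1, 0 and 3 of its 10 largest TCRs were found in tumor 2. In mouse 4 the largest TCR of the node, at 0.550%, lay below the 1.26% that its tumor 2 could miss. By unique TCRs, 22.7%, 26.0%, 1.55%, 20% and 5.42% of those of tumor 2 were found in the TdLN. The highest share found in the TdLN of another mouse was 18.1%, 9.67%, 1.03%, 0% and 5.24%. For tumor 2 of mouse 5 this was the node of mouse 4, which by templates held 11.5%, against 9.57% in the node of mouse 5. The 10 largest TCRs of a tumor 2 used 7 to 9 different V genes.

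TCRs of tumor 2 that were also in the TdLN had larger clones in the node than its other TCRs. In the TdLN they had on average 20.01, 7.53, 36.3, 3 and 5.17 templates in mice 1 to 5, and the TdLN TCRs not found in tumor 2 had 1.79, 1.66, 2.98, 1.52 and 1.57. Large clones are more readily sampled in both tissues, and the part of depth in this difference was not tested. Without rearrangements of other mice the former were 4.60, 3.63, 1, 2.50 and 5.54, the value of mouse 3 resting on a single TCR. Shared TCRs of tumor 2 had fewer N insertions than the others in 4 of 5 mice, with differences of -0.570, -0.283, -0.575 and -1.02 bases in mice 1, 2, 4 and 5, and of 0.218 in mouse 3, where 3 TCRs were shared. The TdLN held its shared TCRs at 39.7%, 21.8%, 2.77%, 0.344% and 1.70% of its templates.

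Among CDR3 amino acid sequences, none was found in tumor 2 of 4 or 5 mice. Of 1024 distinct CDR3s, 128 were in tumor 2 of 2 mice and 45 in that of 3. All 45 included at least 1 nucleotide rearrangement that was itself in tumor 2 of more than 1 mouse, as did 121 of the 128, so 7 CDR3s were shared between mice through different rearrangements alone. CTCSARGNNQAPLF had 92, 501 and 541 templates in tumor 2 of mice 1, 2 and 5, made by 19 nucleotide rearrangements, and 114 templates in the TdLNs of all mice. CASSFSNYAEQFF, with 183, 129 and 903 templates in mice 1, 2 and 3, and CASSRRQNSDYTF, with 7, 2 and 357, were in none of the TdLNs.

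Set against tumor 1 of the same mice, no single measure of tumor 2 had a p under 0.05, the smallest being 0.175 before adjustment (two-sided exact permutation, n = 5). This was the share of the 10 largest TCRs, at -9.13 ± 7.70 points (SD of the differences within mice), lower in tumor 2 in 4 of 5 mice. Per unique TCR, N insertions were lower in tumor 2 in 5 of 5 mice, by 0.235 ± 0.216 bases, and J trimming higher in 5 of 5, by 0.175 ± 0.186 (SD, n = 5). For both, sign flips within mice gave the smallest p they allow (exact p = 0.0625). Its difference from the TdLN was thus not shown to be particular to the later tumor.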

How the data were processed

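TCR β rearrangements were measured by immunoSEQ in genomic DNA of sorted CD8+ PD-1+ CD44+ T cells. The deposited files list, for each sample, every rearrangement with its sequence, genes, CDR3, insertions and a count that the authors' assay provider had scaled to estimated templates. The software behind these files is not given in the sources used here. Productive rearrangements were summarised per sample, as unique TCRs and by templates, with Python 3.11.15, pandas 2.3.3, numpy 2.4.6 and scipy 1.17.1. Groups were compared by two-sided exact permutation tests over all 252 assignments of 5 against 5 samples, with Benjamini-Hochberg adjustment over the 26 single measures or over the V or J genes whose share averaged 1% or more, at a threshold of 0.05. The labels give only a shared number, and samples with the same number were taken as from the same mouse. The paper describes its TdLN and tumor samples as paired. The deviations of V and J shares from their group means correlated over 0.1 in 2 of 5 pairs (-0.162 to 0.372). For 1 of 5 the node of the same number correlated best. Sign flips over 5 mice also cannot reach 0.05, so the paired value is an alternative. limma 3.58.1 in R 4.3.3, on log2 of the share plus 0.5 or 0.1, with and without the mouse as a block, was another. Further alternatives left out each mouse, rearrangements of other mice, those of both tissues, small variants of a large rearrangement (last 40 bases, 50 times fewer templates), and TCRs under 2 templates, or used distinct CDR3s, equal templates, medians, non-productive rearrangements, and no or a 2% minimum share. Keeping a rearrangement in the mouse of its highest share, leaving out CDR3s that lack the conserved ends, the productive share under these settings and all TCRs at 56 templates were chosen after seeing the data. The code was tested on simulated data. Genes named in detail were the 5 V and 5 J genes that the rule selected, and others were named after their values were seen. The samples, lists and measures were chosen with earlier results of these data known. Templates per sample, 238 to 9105, set the precision.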

Additional observations from a re-analysis of the deposited data

Results flagged for a closer look

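Of 98 groups of 5 samples, 7 held a sample set apart from the other 4 by more than Dixon's 95% critical value, where chance gives about 1 in 20. The TdLN of mouse 1 accounted for 3, with the shortest CDR3s by templates at 13.2 residues (the others 13.77 to 13.96), and the lowest Trbv12-1 share at 3.41% of templates (7.07% to 8.55%) and 5.94% of unique TCRs (8.44% to 8.91%). Tumor 2 of mouse 5 accounted for 2, with the highest share of templates for Trbj1-1 at 5.51% (2.10% to 2.92%) and for Trbv12-2 at 4.55% (0.679% to 1.011%). The TdLN of mouse 3 had the highest Trbj2-1 share at 17.3% of templates (11.3% to 12.7%). Tumor 2 of mouse 4, with 50 unique TCRs, had 0% of Trbv2 among them (2.42% to 2.89%).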

How the results depend on the processing

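With the mouse as a replicate block, sign flips of 5 within-mouse differences cannot go below p = 0.0625 (exact), which is where the differences in the largest TCR (20.6 points), the 10 largest (50.6 points), unique TCRs at equal templates (-1.56, log2) and CDR3 length of unique TCRs (-0.255) stood. The 2 J calls by templates became 0 under the block, without each mouse in turn (0 to 0), at 2 or more templates, with no minimum share and under both settings for shared rearrangements. limma called 1 at either pseudocount and under the block, and 4 J genes were called with TCRs of both tissues left out. limma called 7 V genes by templates with 0.5 added, 5 with 0.1, and 8 with the replicate block. CDR3 length of unique TCRs missed the threshold at 2 or more templates (-0.119), for distinct CDR3s (-0.165), without small variants (-0.177) and at equal templates without mouse 4 (-0.151), and ranged from -0.305 to -0.201 without each mouse. By templates CDR3 length passed with TCRs of both tissues left out (-0.652) with those of other mice left out (-0.333) and without CDR3s that lack the conserved ends (-0.248). Unique TCRs at equal templates moved to -2.31 in mice 1 to 3, where a larger common depth was drawn.

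The difference in N insertions turned to -0.0556 for unique TCRs at 2 or more templates, and by templates ranged from -0.225 to 0.243 without each mouse. Without CDR3s that lack the conserved ends it turned on both scales (-0.135 and -0.145), as did Trbj2-2 by unique TCRs (-0.117). At 2 or more templates the sign also turned by unique TCRs for Trbj2-2 (-0.567), Trbj2-5 (1.72), Trbj2-3 (1.38), Trbj2-7 (-10.4), Trbj1-1 (3.85) and Trbj1-6 (1.08), and by templates for Trbj1-1 (0.893). At equal templates it turned for Trbj2-2 (-0.20004), Trbj2-7 (-4.50; -3.06 without mouse 4), Trbj1-1 (0.720; 1.21) and Trbj1-6 (0.533). Distinct CDR3s turned Trbj1-1 (0.785) and Trbj1-6 (0.0373), small variants left out Trbv17 (-0.00202) and Trbj1-1 (0.666), and non-productive rearrangements Trbv31 (0.195) and Trbj1-1 (0.155). Leaving out other mice's rearrangements turned, by templates, Trbd2 (1.62), Trbv5 (2.87) and Trbj2-2 (1.17). Without single mice, Trbj1-6 (-1.49 to 0.460) and Trbj1-1 (-0.743 to 0.391) by unique TCRs and Trbj2-7 by templates (-5.69 to 0.355) turned. The causes were not tested. Of the other values, 161 for the compared quantities and 660 for single genes or measures counted as the same. For tested differences this means the same direction and side of the threshold, and for counts of called genes an equal or similar number. Medians and each set of mice alone had no threshold. There a change smaller than the SD within mice counted as the same, and the sign could turn. The 238 templates of tumor 2 of mouse 4 limit every value that includes it.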
